A study of Mus musculus with 24 samples.

Results

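Complement and coagulation are the plasma protein cascades that opsonise and lyse targets and that form and dissolve clots, and most of their proteins are made in the liver. The rows of 52 genes of these cascades were taken by gene symbol from a count table of 56205 mouse genes, and all 52 were among the 17913 genes that had a count in 12 or more libraries, so the minimum on low counts removed no member. Of the 52, 37 are known mainly as products of hepatocytes and 3, the chains of C1q, as products of macrophages. The other 12 are known mainly from other leukocytes, endothelium or further cells. These sources are background knowledge and were not measured here.

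RNA was extracted from whole liver of C57BL/6J mice, males and females, fed for 20 weeks with a high-fat diet (FFD, which carries palm oil, fructose and cholesterol) or with a control diet. There were 12 poly(A)-selected libraries per diet and no genetic change in either group. Bulk RNA-Seq of whole liver cannot tell apart fewer cells of a type and less RNA per cell. The labels do not tie a library to an animal, so p-values measure the spread between these libraries. Levels are given as CPM, a gene's counts in every 1000000 counts of its library after TMM scaling, a scaling by edgeR that corrects library totals for genes that take a large share of the counts. A gene counted as called where the adjusted p was 0.01 or less and the log2 fold change was beyond 0.5 in either direction (quasi-likelihood test of edgeR, Benjamini-Hochberg adjusted over the 17913 genes), and "rose" and "fell" are used only for called genes.

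The libraries differed in more than diet. Library totals were 16490817 to 21213070 counts on the high-fat diet and 14468418 to 22112552 on the control diet. Replicates 1 to 6 of each diet had over 1000 counts of Xist, a transcript of the X chromosome, and replicates 7 to 12 had 3 or fewer. They are called Xist-high and Xist-low libraries, with 6 per diet in each set. Ddx3y, a gene of the Y chromosome, had 0 counts in every Xist-high library and 448 to 1016 counts in the Xist-low libraries. The labels do not state a sex per library. High-fat replicate 3 stood apart with 998 CPM of the acute-phase gene Saa1, against 77.2 to 275 in the other high-fat libraries, and control replicate 10 had the lowest total and the lowest TMM factor (0.68). TMM factors were 0.99 to 1.34 on the high-fat diet and 0.68 to 1.01 on the control diet. The median log2 fold change of all genes tested was -0.03 with TMM and 0.26 with library totals alone, and each group of members is therefore described against that median under both scalings. Albumin mRNA, the defining hepatocyte transcript, made up a median of 6.72% of the counts of a control library and 4.73% of those of a high-fat library.

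The cascades work as follows. C1q binds antibody or damaged cells and activates the proteases C1r and C1s, mannose-binding lectins do the same for sugars through the MASPs, and both routes cleave C4 and C2 and then C3. Factor B, factor D and properdin amplify C3 cleavage, C5 to C9 build the membrane attack complex, and the fragments C3a and C5a signal through receptors on leukocytes. In coagulation, tissue factor with factor VII, or the contact factors with factor XI, lead through factors IX and X to thrombin, which cuts fibrinogen to fibrin. Proteins C and S limit thrombin formation, and plasmin, made from plasminogen by the activators tPA and uPA, dissolves fibrin.

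The 250 bases upstream of the RefSeq start are shown for genes on which the results turn. They are chains of C1q, C8b (the member with the largest fall) and 3 further genes of the membrane attack complex whose diet effect differed between the sets of libraries. The sequences are from RefSeq on GRCm38.p6, written 5′ to 3′ on the gene's strand, and capitals mark a match to a searched motif on either strand. C1qb lies at chr4:136886201-136886450 (minus strand), C1qc at chr4:136892915-136893164 (minus), C8b at chr4:104766067-104766316 (plus), C8a at chr4:104876399-104876648 (minus), C9 at chr15:6445096-6445345 (plus) and C6 at chr15:4726960-4727209 (plus). The stretches of C1qc, C9 and C6 run into the gene as annotated in GENCODE M21, whose start lies further upstream than that of RefSeq. C8a, C9 and C6 were chosen after their values had been seen.
C1qb: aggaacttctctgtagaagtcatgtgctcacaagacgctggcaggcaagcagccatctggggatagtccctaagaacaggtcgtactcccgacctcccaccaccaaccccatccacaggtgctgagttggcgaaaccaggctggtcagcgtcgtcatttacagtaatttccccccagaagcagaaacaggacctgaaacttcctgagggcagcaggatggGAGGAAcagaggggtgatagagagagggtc
C1qc: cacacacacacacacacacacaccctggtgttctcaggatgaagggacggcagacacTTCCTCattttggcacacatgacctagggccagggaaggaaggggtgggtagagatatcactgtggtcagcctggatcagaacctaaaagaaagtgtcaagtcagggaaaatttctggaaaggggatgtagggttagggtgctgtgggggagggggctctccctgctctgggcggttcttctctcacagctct
C8b: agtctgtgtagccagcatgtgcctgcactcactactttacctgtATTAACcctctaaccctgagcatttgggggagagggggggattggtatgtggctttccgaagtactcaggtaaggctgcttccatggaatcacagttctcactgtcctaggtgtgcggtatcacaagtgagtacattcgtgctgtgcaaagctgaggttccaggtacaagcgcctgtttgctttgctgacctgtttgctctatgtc
C8a: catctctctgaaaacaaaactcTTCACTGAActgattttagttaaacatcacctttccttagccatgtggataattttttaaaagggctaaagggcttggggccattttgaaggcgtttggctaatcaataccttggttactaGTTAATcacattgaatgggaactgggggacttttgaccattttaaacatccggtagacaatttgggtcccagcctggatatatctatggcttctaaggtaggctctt
C9: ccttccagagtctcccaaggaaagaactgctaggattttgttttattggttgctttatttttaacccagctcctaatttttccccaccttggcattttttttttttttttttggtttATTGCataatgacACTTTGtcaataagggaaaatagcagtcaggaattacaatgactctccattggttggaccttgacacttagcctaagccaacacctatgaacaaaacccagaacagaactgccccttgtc
C6: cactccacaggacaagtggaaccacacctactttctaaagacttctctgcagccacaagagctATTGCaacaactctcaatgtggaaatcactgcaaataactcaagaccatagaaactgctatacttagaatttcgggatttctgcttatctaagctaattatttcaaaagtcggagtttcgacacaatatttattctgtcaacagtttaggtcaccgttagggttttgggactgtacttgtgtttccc

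The RefSeq promoter table, with 300 bases per gene, held 40 of the 52 members and 27025 promoters in all. GAGGAA, the core bound by the myeloid factor PU.1, is the match in capitals in C1qb and C1qc and was in 28.3% of all promoters and in 3 of the 29 hepatocyte-made members with an entry. GTTAAT, a core of the site of the hepatocyte factor HNF1, is marked in C8b and C8a and was in 7.2% of all promoters and in 9 of those 29 (31.0%). C9 carries CAAAGT, an HNF4 core (14.3% of all promoters and 6 of 29), and C9 and C6 carry GCAAT, a C/EBP core (26.5% of all promoters and 9 of 29). TTCNNNGAA, the STAT palindrome, was searched after the values had been seen and was in 8.47% of all promoters and in 8 of the 29, among them C8a. The letters of the PU.1 core can lie within the STAT palindrome. A match describes letters and shows no binding.

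Of the 52 members, 9 rose on the high-fat diet, against 13.2% of all genes tested, and 13 fell, against 4.99% of all genes tested. None of the 37 hepatocyte-made members rose (with library totals alone, Pros1 did) and all 13 that fell were among them, while the 9 that rose were among the 15 made elsewhere. The median log2 fold change was -0.45 over the hepatocyte-made members and 1.28 over the other 15, and that of all genes was -0.03. With library totals alone these medians were -0.17, 1.58 and 0.26, and 3 members were called lower (C8b, F11 and Apoh) and 12 higher. The log2 fold change was below 0 in 35 of the 37 hepatocyte-made members with TMM, and in 29 of 37 with library totals.

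**Figure D1:**
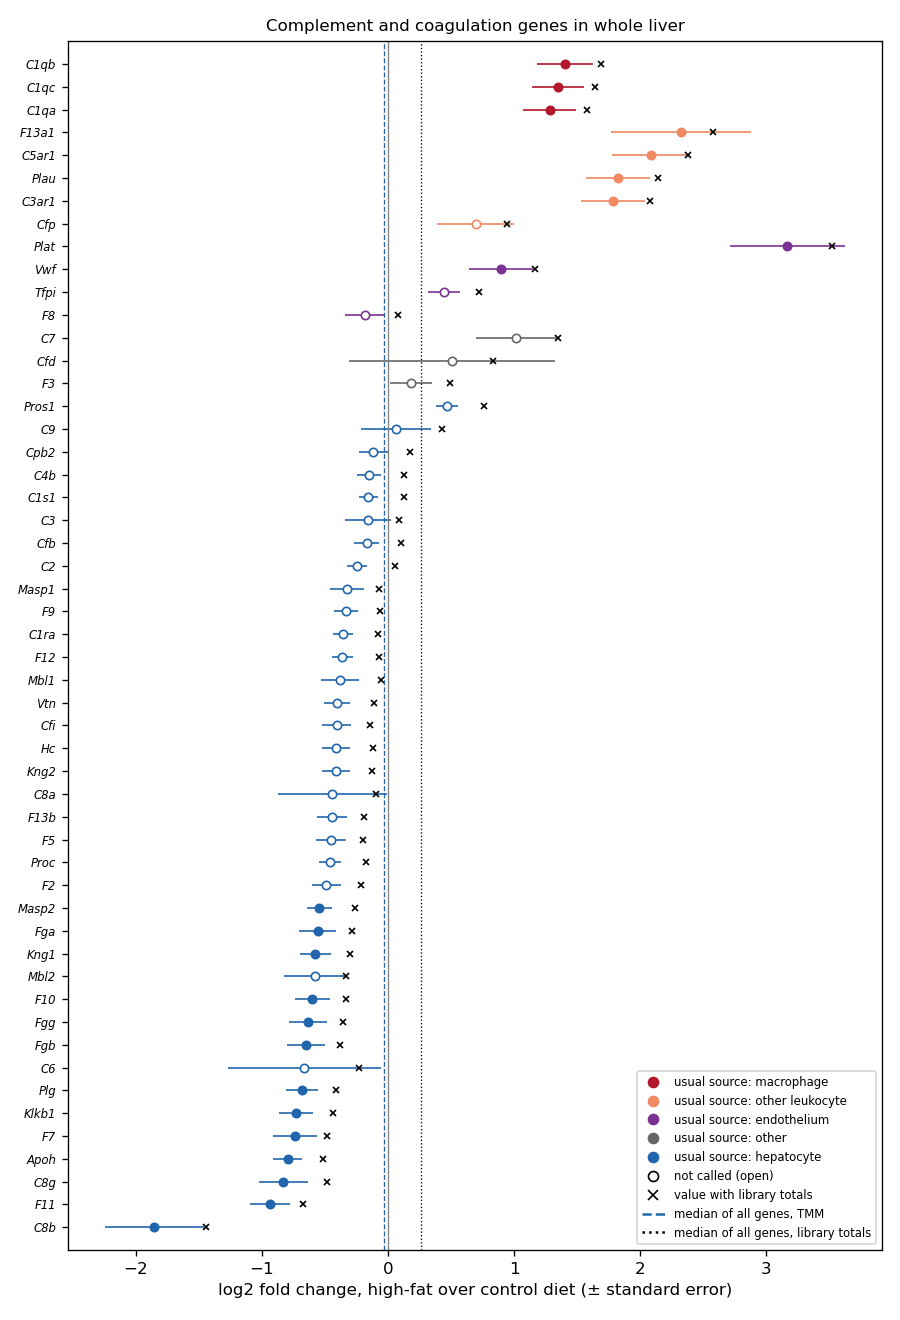
Log2 fold change, high-fat over control diet, of the 52 members with its standard error, coloured by usual cell source (n = 12 libraries per diet). Filled points are called, crosses give the value with library totals alone, and vertical lines give the medians of all genes (-0.03 and 0.26). The C1q chains sit between 1.28 and 1.40, and C8b is lowest at -1.85.

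C1q is built from the products of 3 neighbouring genes on chromosome 4, and all 3 rose. C1qa (ENSMUSG00000036887, chr4:136895917-136898803 on mm10 in GENCODE M21) was at 28.4, 56.8 and 122 CPM (lowest, median, highest) in the control libraries and at 101, 134 and 231 CPM in the high-fat libraries. The rise was 1.28 on the log2 scale (standard error 0.21, adjusted p = 4.09e-05). All 12 high-fat libraries lay above the control median of C1qa, and 8 lay above every control library.

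C1qb (ENSMUSG00000036905, chr4:136880129-136886187) was at 21.2, 38.3 and 90.4 CPM on the control diet and at 85.2, 108 and 191 CPM on the high-fat diet. It rose by 1.40 on the log2 scale (standard error 0.22, adjusted p = 2.42e-05), and 1 high-fat library reached into the control range. C1qc (ENSMUSG00000036896, chr4:136889804-136893065) was at 20.3, 38.8 and 79.0 CPM on the control diet and at 83.9, 96.0 and 176 CPM on the high-fat diet. The diets did not overlap for C1qc (log2 fold change 1.35, standard error 0.21, adjusted p = 1.87e-05). C1qc was 1 of 2 members that were higher without overlap, the other being C5ar1, and 1.48% of all genes tested were. The proportions of the chains overlapped between the diets. Within a library the log2 ratio of C1qb to C1qa counts was -0.26 in the median high-fat library and -0.41 in the median control library, and that of C1qc to C1qa was -0.38 and -0.47.

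Markers of macrophages moved with C1q. All 6 general macrophage markers (Cd68, Adgre1, Csf1r, Lyz2, Cd14 and Mpeg1) rose, and their summed level was 565 to 1206 CPM on the high-fat diet and 170 to 489 CPM on the control diet. The log2 ratio of C1q counts to these markers was -0.98 in the median high-fat library and -0.95 in the median control library, and the ranges overlapped. The ratio was -0.44 and -0.76 to Kupffer cell markers and 0.25 and 1.19 to markers of recruited macrophages, with overlap in both. Of 6 markers of resident Kupffer cells, Cd5l and Folr2 rose, Cd163 fell and Clec4f, Timd4 and Marco were not called, and their summed level was 162 to 731 CPM against 109 to 442 CPM. All 6 markers of recruited macrophages (Ccr2, Ly6c2, Gpnmb, Trem2, Cd9 and Spp1) rose, with sums of 126 to 920 CPM against 44.3 to 157 CPM. None of the 18 genes was at 0 in every library, and the part of cell number in the rise of C1q was not tested.

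The rise of C1q differed between the sets of libraries. In Xist-high libraries the medians of C1qa were 120 CPM on the high-fat diet and 74.5 CPM on the control diet (log2 fold change 0.59, adjusted p = 0.0346, not called). In Xist-low libraries they were 155 and 33.9 CPM (log2 fold change 2.11, adjusted p = 6.62e-06). The difference between the sets was 1.51 for C1qa, 1.63 for C1qb and 1.45 for C1qc on the log2 scale (adjusted p = 0.00153, 0.000628 and 0.0016 for the interaction of diet and set in edgeR's quasi-likelihood test). An interaction at an adjusted p of at most 0.01 was found for 10 of the 52 members and for 4.06% of all genes. The high-fat ranges of C1qa were near each other, 101 to 136 CPM in Xist-high and 132 to 231 CPM in Xist-low libraries, whereas the control ranges were 49.6 to 122 CPM and 28.4 to 62.5 CPM. The general macrophage markers had medians of 611 and 308 CPM (high-fat and control) in Xist-high and of 780 and 186 CPM in Xist-low libraries.

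**Figure D2:**
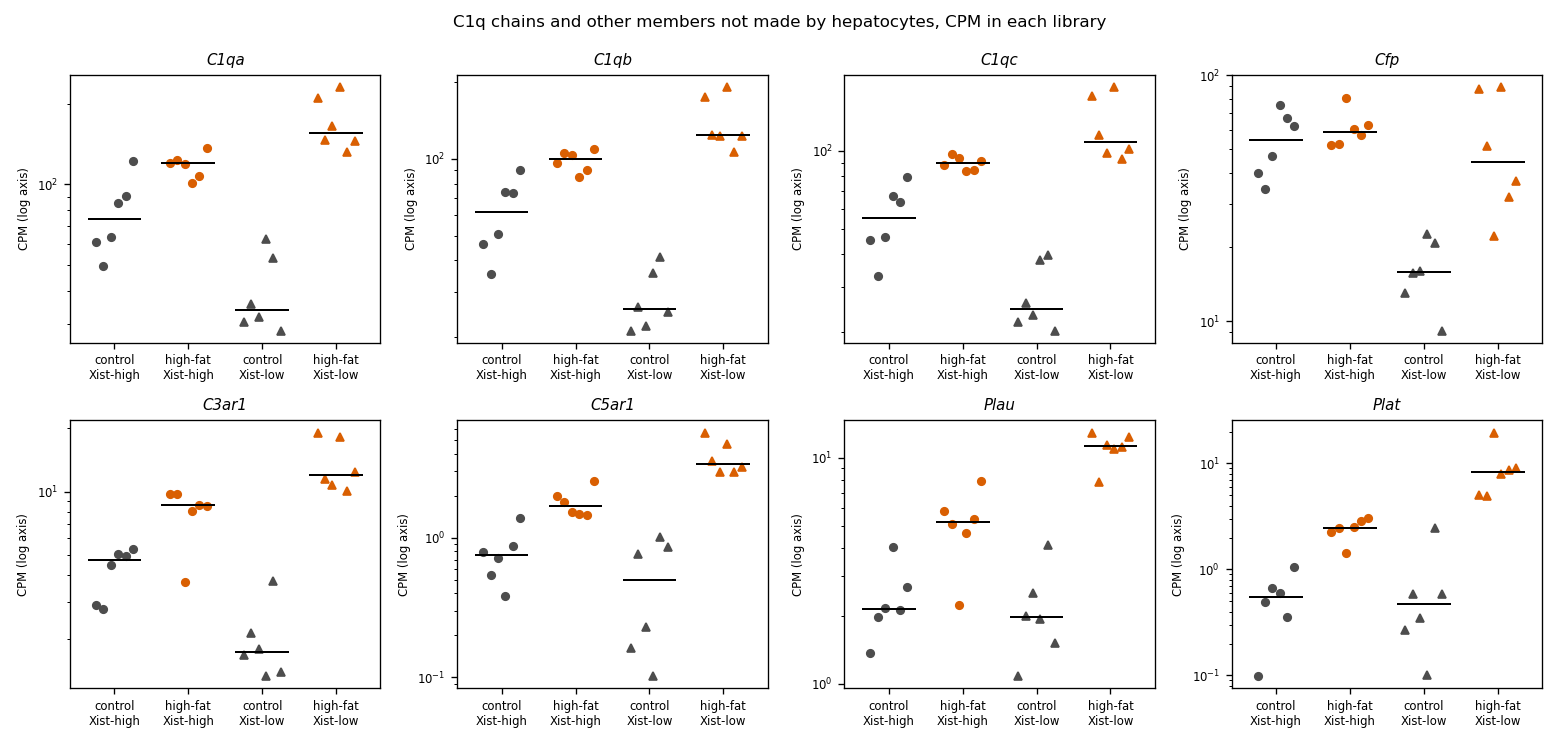
CPM in each library (log axes) of the C1q chains and of 5 other members not usually made by hepatocytes, by diet and set. Circles are Xist-high and triangles Xist-low libraries, and bars are medians of 6 libraries. The 6 Xist-low high-fat libraries of C1qa sit at 132 to 231 CPM, above all 6 Xist-low control libraries (28.4 to 62.5 CPM).

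The receptors for the fragments C3a and C5a are carried by myeloid cells, and both rose from low levels. C3ar1 was at 1.32, 2.84 and 5.31 CPM on the control diet and at 3.73, 9.90 and 19.1 CPM on the high-fat diet (log2 fold change 1.79, standard error 0.25, adjusted p = 7.32e-06). High-fat replicate 3 alone lay within the control range of C3ar1. The log2 fold change of C3ar1 was 0.94 in Xist-high (adjusted p = 0.0124, not called) and 2.76 in Xist-low libraries, a difference of 1.81 (adjusted p = 0.00184). C5ar1 was at 0.10, 0.74 and 1.38 CPM on the control diet and at 1.45, 2.76 and 5.70 CPM on the high-fat diet, with no overlap (log2 fold change 2.09, standard error 0.31, adjusted p = 1.43e-05). Its counts were 1 to 30 per control library and 26 to 120 per high-fat library, and counts of 3 or fewer carry a large counting error. Properdin (Cfp), which stabilises the alternative pathway convertase and is made by leukocytes, was at a median of 54.8 CPM on the high-fat diet and 28.5 CPM on the control diet and was not called (log2 fold change 0.69, adjusted p = 0.0706). In Xist-low libraries alone it was called (log2 fold change 1.75, adjusted p = 0.000874), and the interaction missed the threshold (adjusted p = 0.0115). With the set as a covariate Cfp was called higher over all libraries (0.93, adjusted p = 0.00479). Neutrophil markers were at low levels in the median library of either diet. Of 5 tested, S100a8 (4.28), S100a9 (3.79), Retnlg (2.88) and Mmp8 (3.02) rose and Cxcr2 was not called. The summed level of the 6 listed had a median of 2.85 CPM (1.48 to 162) on the high-fat diet and 1.06 CPM (0.40 to 2.35) on the control diet. The sum of 162 CPM was in high-fat replicate 3, which held the highest count of each of these markers. Their fold changes therefore rest largely on that library, and values without it are not given here. The part of these cells in the leukocyte members was not tested.

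Both plasminogen activators rose while plasminogen fell. Plat, which encodes tPA, the activator of endothelium, had the largest rise of all members, from 0.098, 0.54 and 2.44 CPM on the control diet to 1.44, 4.02 and 19.6 CPM on the high-fat diet (log2 fold change 3.17, standard error 0.46, adjusted p = 9.56e-06). Plat had 1 to 43 counts per control library (median 9.5) and 27 to 463 per high-fat library. In all, 10 of the 12 high-fat libraries were above every control library. Its highest value was in high-fat replicate 9, and without that library the log2 fold change was 2.84. Plau, which encodes uPA, the activator of leukocytes, was at 1.08, 2.06 and 4.13 CPM on the control diet and at 2.24, 7.87 and 12.9 CPM on the high-fat diet (log2 fold change 1.82, standard error 0.25, adjusted p = 6.42e-06), and 11 high-fat libraries lay above every control library. Plg, plasminogen itself, is a hepatocyte product and was at 1704, 2696 and 3175 CPM on the control diet and at 1212, 1551 and 2360 CPM on the high-fat diet (log2 fold change -0.68, standard error 0.13, adjusted p = 0.00016). Within a library there were 1384 counts of Plg per count of Plau in the median control library and 206 in the median high-fat library. Plg was 1 of 2 members called lower in Xist-high libraries alone, where 0.882% of all genes were, and Plat was 1 of 3 called higher there, where 2.9% of all genes were.

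Of the other members of endothelium, Vwf, the carrier of factor VIII and platelet ligand, was at 4.999, 7.78 and 14.6 CPM on the control diet and at 8.03, 10.8 and 47.8 CPM on the high-fat diet (log2 fold change 0.90, standard error 0.25, adjusted p = 0.00679). The highest value of Vwf was in high-fat replicate 3, without which the gene was no longer called (log2 fold change 0.58, adjusted p = 0.0124). The call of Vwf was lost in 8 of the 24 fits with 1 library left out (high-fat replicates 3 and 7 and control replicates 2, 4, 6, 8, 10 and 12, adjusted p at most 0.0127) and with limma-voom (0.74, adjusted p = 0.0171). Tfpi, the inhibitor of the tissue factor pathway, had an adjusted p of 0.00608 at a log2 fold change of 0.45, under the threshold of 0.5. F8, made by sinusoidal endothelium, was at a median of 10.1 CPM on the high-fat diet and 12.9 CPM on the control diet and was not called. Of 6 markers of sinusoidal endothelium 1 rose (Stab2), and the summed level was 148 to 334 CPM on the high-fat diet and 128 to 279 CPM on the control diet.

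F13a1, the catalytic chain of the fibrin-crosslinking factor XIII, is carried by macrophages and platelets and rose from the lowest level of all members. It had 0 to 11 counts per control library and 2 to 106 per high-fat library. The CPM were 0, 0.14 and 0.72 on the control diet and 0.11, 0.65 and 5.65 on the high-fat diet (log2 fold change 2.32, standard error 0.55, adjusted p = 0.00172). The 106 counts were in high-fat replicate 3, without which the log2 fold change was 1.67 (adjusted p = 0.00494). With the replicate number as a block F13a1 was not called (adjusted p = 0.0122). Of 4 platelet markers, Pf4 rose, and the summed level was 4.18 to 20.6 CPM on the high-fat diet and 3.28 to 7.43 CPM on the control diet. The sum of 20.6 CPM was in high-fat replicate 3, the library with the 106 counts of F13a1. None of 5 red cell markers was called. Their summed level was 191 to 5217.5 CPM (median 454) on the high-fat diet and 412 to 1330 CPM (median 601) on the control diet. The part of blood cells in the values of F13a1 was not tested. F13b, the carrier chain made by hepatocytes, was at medians of 134 CPM on the high-fat diet and 179 CPM on the control diet (log2 fold change -0.45, adjusted p = 0.004), which is under the fold threshold.

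Among members made by further cells, none was called. C7, a terminal complement protein made largely outside hepatocytes, had a log2 fold change of 1.01 with an adjusted p of 0.0141. In Xist-low libraries alone C7 was called (log2 fold change 1.58, adjusted p = 0.00641). It was also called higher with DESeq2, with library totals (1.35, adjusted p = 0.00288) and in 5 of the 24 fits with 1 library left out. Of 6 markers of stellate cells and fibroblasts, Dcn (0.65), Col1a1 (3.12), Col3a1 (2.60) and Pdgfrb (1.42) rose, with sums of 351 to 823 CPM on the high-fat diet and 149 to 415 CPM on the control diet, and their part in these values was not tested. F3, tissue factor, was at medians of 6.39 and 5.55 CPM on the high-fat and control diet (adjusted p = 0.393). Cfd, factor D, known from adipocytes, ranged from 0 to 19.8 CPM on the control diet and from 0.37 to 19.2 CPM on the high-fat diet (adjusted p = 0.652). The adipocyte markers Adipoq, Plin1, Retn and Lep together were at most 0.0996 CPM in a high-fat library and 1.06 CPM in a control library.

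The early complement proteins of hepatocytes were not called, apart from Masp2. The log2 fold changes of the classical components were -0.36 for C1ra (adjusted p = 0.000796, under the fold threshold), -0.16 for C1s1, -0.24 for C2 and -0.15 for C4b. With library totals those of C1s1, C2 and C4b were above 0 but under the median of all genes (0.26). C3, the central component, was at 3699, 6217 and 10273 CPM on the control diet and at 4068, 5214 and 10192 CPM on the high-fat diet (log2 fold change -0.16, standard error 0.18, adjusted p = 0.521). Factor B (Cfb) had medians of 1030 CPM on the high-fat diet and 1244 CPM on the control diet (log2 fold change -0.17, adjusted p = 0.181). With library totals the values of Cfb and C3 were likewise above 0 but under that median. Factor I (Cfi), the protease that inactivates C3b, had a log2 fold change of -0.41 with an adjusted p of 0.00774.

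Masp2, the protease of the lectin pathway, was at 225, 247 and 306 CPM on the control diet and at 102, 181 and 221 CPM on the high-fat diet, with no overlap (log2 fold change -0.54, standard error 0.10, adjusted p = 0.000124). The gene missed the fold threshold without high-fat replicate 9 (log2 fold change -0.48). In GENCODE M21, 52.4% of the 51-base words of Masp2 exons are shared with Tardbp, which overlaps it on the opposite strand, and whether the mouse counts were made with strand is not given in the sources used here, although the study's methods describe a stranded kit for RNA-Seq in general. The values of C1ra (50.4% shared with C1rb), C1s1 (34.6% with C1s2), C4b (33.9% with C4a), Plg (10.2% with Slc22a3 on the opposite strand), and C2 and Cfb (41.5% and 72.9% with the readthrough gene Gm20547) are uncertain for the same kind of reason. Of the lectins, Mbl2 had a log2 fold change of -0.58 (adjusted p = 0.0695) and Mbl1 of -0.38 (adjusted p = 0.0487). Mbl2 was called lower with the set as a covariate (-0.70, adjusted p = 0.00115), with the replicate number as a block (-0.70, adjusted p = 0.00284) and in Xist-low libraries alone (-1.06, adjusted p = 0.00208). Masp1, which activates MASP-2, was at -0.32 (adjusted p = 0.0608).

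Of the terminal complement genes, C8b and C8g, the beta and gamma chains of C8, fell. C8b (ENSMUSG00000029656, chr4:104766317-104804548) was at 50.3, 132 and 511 CPM on the control diet and at 33.8, 50.4 and 139 CPM on the high-fat diet (log2 fold change -1.85, standard error 0.39, adjusted p = 0.000574), and 6 high-fat libraries lay below every control library. C8g was at 306, 378 and 1352 CPM on the control diet and at 175, 246 and 302 CPM on the high-fat diet, with no overlap (log2 fold change -0.83, standard error 0.20, adjusted p = 0.00159). Its highest value was in control replicate 10, without which the log2 fold change was -0.54. Masp2, C8g and Apoh were the 3 members that were lower without overlap, and 0.402% of all genes tested were. C5 itself (Hc) was at medians of 491 CPM on the high-fat diet and 666 CPM on the control diet (log2 fold change -0.41, adjusted p = 0.00572, under the fold threshold).

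C6, C8a and C9 were not called over all libraries, with log2 fold changes of -0.66, -0.44 and 0.06 and standard errors of 0.61, 0.43 and 0.28. For these 3 genes the control levels of the sets were far apart. In control libraries C6 was at 12.9 to 19.2 CPM in the Xist-high and at 183 to 317 CPM in the Xist-low set. C8a was at 26.8 to 73.9 CPM and at 216 to 517 CPM, and C9 at 118 to 151 CPM and at 351 to 595 CPM. No test compares the sets themselves.

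On the high-fat diet the medians of the sets were nearer to each other, for C6 at 19.7 and 133 CPM, for C8a at 100 and 196 CPM and for C9 at 252 and 382 CPM. C8a, the alpha chain of C8, was called higher in Xist-high libraries, from a control median of 50.6 to 100 CPM (log2 fold change 1.37, adjusted p = 0.00989). In the Xist-low libraries it was called lower, from 372 to 196 CPM (log2 fold change -0.99, adjusted p = 0.000856). The difference between the sets was -2.37 (adjusted p = 0.00047). High-fat replicate 3 had the highest C8a of the Xist-high set (287 CPM), and the other 5 high-fat libraries of that set were at 75.1 to 141 CPM, all above its control range. C9, which forms the pore, was called higher in Xist-high libraries (log2 fold change 0.92, adjusted p = 0.000823) and not called in Xist-low libraries (-0.29, adjusted p = 0.143), with a difference of -1.22 (adjusted p = 0.000617). C6 had log2 fold changes of 0.39 (adjusted p = 0.0592) and -0.76 (adjusted p = 0.00533), with a difference of -1.16 (adjusted p = 0.00241).

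C8a (chr4:104815679-104876398) is the next gene to C8b on chromosome 4. C8b had a log2 fold change of -0.35 in Xist-high (adjusted p = 0.292) and of -2.47 in Xist-low libraries (adjusted p = 0.000152), a difference of -2.13 (adjusted p = 0.003). Within a library the log2 ratio of C8a to C8b counts was -0.10 in the median control library and 1.44 in the median high-fat library, and 10 high-fat libraries lay above every control library. The medians of this ratio differed between the diets by 1.42 in Xist-high and 1.49 in Xist-low libraries.

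**Figure D3:**
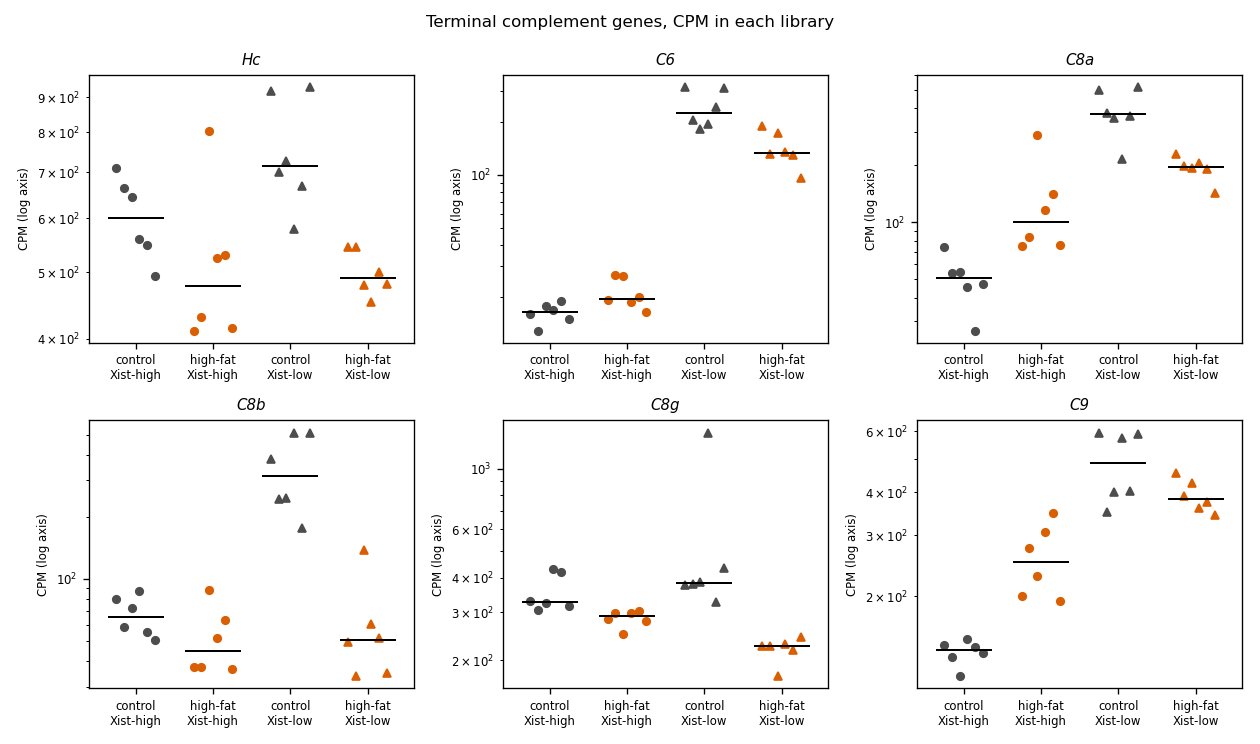
CPM in each library (log axes) of 6 hepatocyte-made terminal complement genes by diet and set (circles Xist-high, triangles Xist-low, bars medians of 6 libraries). For C6, C8a and C9 the control libraries of the sets do not overlap, and the high-fat medians of C8a (100 and 196 CPM) lie between the control medians (50.6 and 372 CPM).

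Of the contact factors, which start clotting on surfaces and release bradykinin, 3 of 5 fell and the other two passed the adjusted p alone. F11 was at 52.2, 71.4 and 80.1 CPM on the control diet and at 20.7, 32.5 and 62.5 CPM on the high-fat diet (log2 fold change -0.94, standard error 0.16, adjusted p = 6.34e-05), and 10 high-fat libraries lay below every control library. Klkb1, plasma prekallikrein, was at 131, 154 and 262 CPM on the control diet and at 69.9, 92.9 and 141 CPM on the high-fat diet (log2 fold change -0.73, standard error 0.13, adjusted p = 0.000127). F11 and Klkb1 are neighbours on chromosome 8, and 42.7% of the 51-base words of Klkb1 are shared with the overlapping gene Gm45753. The log2 fold changes in Xist-low and Xist-high libraries were -1.52 and -0.48 for F11 (adjusted p = 0.000746 for the difference) and -1.21 and -0.30 for Klkb1 (adjusted p = 0.00125), and neither was called in Xist-high libraries. With library totals alone these differences did not pass (adjusted p = 0.0153 and 0.0113). Kng1, kininogen, fell from a median of 2234 CPM (1570 to 2718) to 1424 CPM (1049 to 2249), by 0.58 on the log2 scale (standard error 0.12, adjusted p = 0.00055). Its near copy Kng2, with which it shares 16.8% of its words, was at -0.41 (adjusted p = 0.00426), and F12 at -0.36 (adjusted p = 0.0012).

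Factor VII (F7), the partner of tissue factor, was at 63.7, 114 and 155 CPM on the control diet and at 40.6, 64.7 and 111 CPM on the high-fat diet (log2 fold change -0.74, standard error 0.17, adjusted p = 0.00153). F10, its neighbour on chromosome 8 and the protease that makes thrombin, was at 343, 488 and 579 CPM on the control diet and at 205, 292 and 523 CPM on the high-fat diet (log2 fold change -0.60, standard error 0.14, adjusted p = 0.00113). All 12 high-fat libraries of F7 and 11 of F10 lay below the control median. Prothrombin (F2), factor V (F5) and factor IX (F9) passed the adjusted p but not the fold threshold, with log2 fold changes of -0.49, -0.45 and -0.33 (adjusted p = 0.00166, 0.00401 and 0.00832). F2 was called with the set as a covariate (-0.51, adjusted p = 6.22e-05) and with the replicate number as a block (-0.503, adjusted p = 0.00133).

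The 3 chains of fibrinogen, encoded within chr3:83007724-83049863, all fell. Fga was at 2366, 3320 and 5074 CPM on the control diet and at 1825, 2037 and 4243 CPM on the high-fat diet (log2 fold change -0.56, standard error 0.15, adjusted p = 0.00399). Fgb was at 2300, 3754 and 5292 CPM and at 1780, 2163 and 4181 CPM (log2 fold change -0.65, standard error 0.15, adjusted p = 0.00131). Fgg was at 2186, 3467 and 4871 CPM and at 1670, 1928 and 4256 CPM (log2 fold change -0.64, standard error 0.15, adjusted p = 0.00161). The highest high-fat value of each chain was in high-fat replicate 3, and 7 to 8 high-fat libraries lay below every control library. With library totals the chains were not called (log2 fold changes -0.29, -0.38 and -0.35), and Fga missed the fold threshold without control replicate 12 (-0.49). Per kilobase of annotated exon, Fgg had the highest control level of all members (1652 CPM per kb), ahead of Apoh (1352), Vtn (1290) and C3 (1254).

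Protein C, which inactivates factors V and VIII, and its cofactor protein S had changes of opposite sign. For Proc the log2 fold change was -0.46 ± 0.09 (SE, adjusted p = 0.000229) and for Pros1 (protein S) 0.47 ± 0.09 (SE, adjusted p = 0.000133), both just under the fold threshold of 0.5. Pros1 was at 41.4, 52.04 and 73.5 CPM on the control diet and at 64.3, 75.5 and 97.8 CPM on the high-fat diet, and Proc at 368, 452 and 595 CPM and at 264, 317 and 408 CPM. There were 8.14 counts of Proc per count of Pros1 in the median control library and 4.01 in the median high-fat library, and the ratio did not overlap between the diets. Pros1 was 1 of 2 hepatocyte-made members with a log2 fold change above 0. Cpb2, the inhibitor of fibrinolysis known as TAFI, was not called (log2 fold change -0.12, adjusted p = 0.444). With library totals its value was above 0 but under the median of all genes (0.26).

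Of the adhesive proteins of plasma, Apoh (beta-2-glycoprotein I, which binds phospholipid) was at 1651, 2112 and 3067 CPM on the control diet and at 845, 1199 and 1606 CPM on the high-fat diet, with no overlap (log2 fold change -0.80, standard error 0.12, adjusted p = 1.13e-05). It was called lower in each set alone, with log2 fold changes of -0.62 and -0.99, and with library totals. Plg, by comparison, was called in each set alone but not with library totals (-0.41). Vitronectin (Vtn), an inhibitor of the membrane attack complex, had a log2 fold change of -0.40 (adjusted p = 0.00309), under the fold threshold.

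In Xist-low libraries 23 of the 37 hepatocyte-made members were called lower, where 7.99% of all genes were. In Xist-high libraries 2 of the 37 were, against 0.882% of all genes. In Xist-low libraries 10 of the 52 members were called higher, where 14.4% of all genes were. In Xist-high libraries 3 of the 52 were (C8a, C9 and Plat), against 2.9% of all genes. The median log2 fold change of the hepatocyte-made members was -0.66 and -0.28 in the Xist-low and Xist-high libraries, and 35 of the 37 had the lower value in the Xist-low libraries. The medians of all genes were -0.03 and 0.01. The difference itself passed the test for 6 of the 37 (C6, C8a, C8b, C9, F11 and Klkb1), and with library totals alone the differences of C6, F11 and Klkb1 did not pass (adjusted p = 0.0253, 0.0153 and 0.0113).

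**Figure D4:**
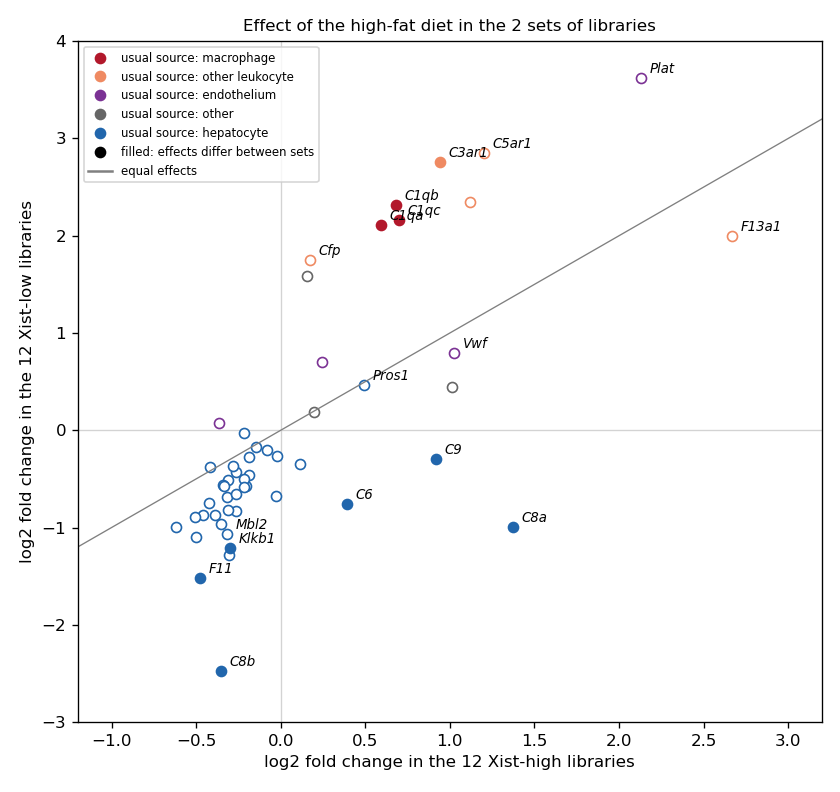
Log2 fold change, high-fat over control diet, of the 52 members in the 12 Xist-high libraries (horizontal) and the 12 Xist-low libraries (vertical), coloured by usual source. Filled points are the 10 members whose effects differed between the sets, and the grey line marks equal effects. C8a sits at 1.37 and -0.99, and the C1q chains at 0.59 to 0.70 and 2.11 to 2.32.

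Ratios of counts within a library do not depend on the scaling. For each count on a C1q chain there were 296 counts on the 37 hepatocyte-made members in the median control library (124 to 610) and 79.6 in the median high-fat library (41.3 to 142). The medians of this ratio differed 3.73-fold between the diets over all libraries, 2.05-fold in Xist-high and 6.84-fold in Xist-low libraries, and 11 of 12 high-fat libraries lay below every control library. The log2 ratio of the hepatocyte-made members to albumin was -0.58 in the median high-fat library and -0.98 in the median control library, with overlap. Of 10 hepatocyte markers 6 fell (Alb by 0.72 on the log2 scale), Cyp3a11 rose and 3 were not called, and their summed level was 54297 to 138000 CPM on the high-fat diet and 97669 to 151160 CPM on the control diet. The part of hepatocyte number in the lower factors was not tested. The 52 members took 2.80% to 4.56% of the counts of a high-fat library (median 3.13%) and 2.77% to 4.36% of a control library (median 3.76%).

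**Figure D5:**
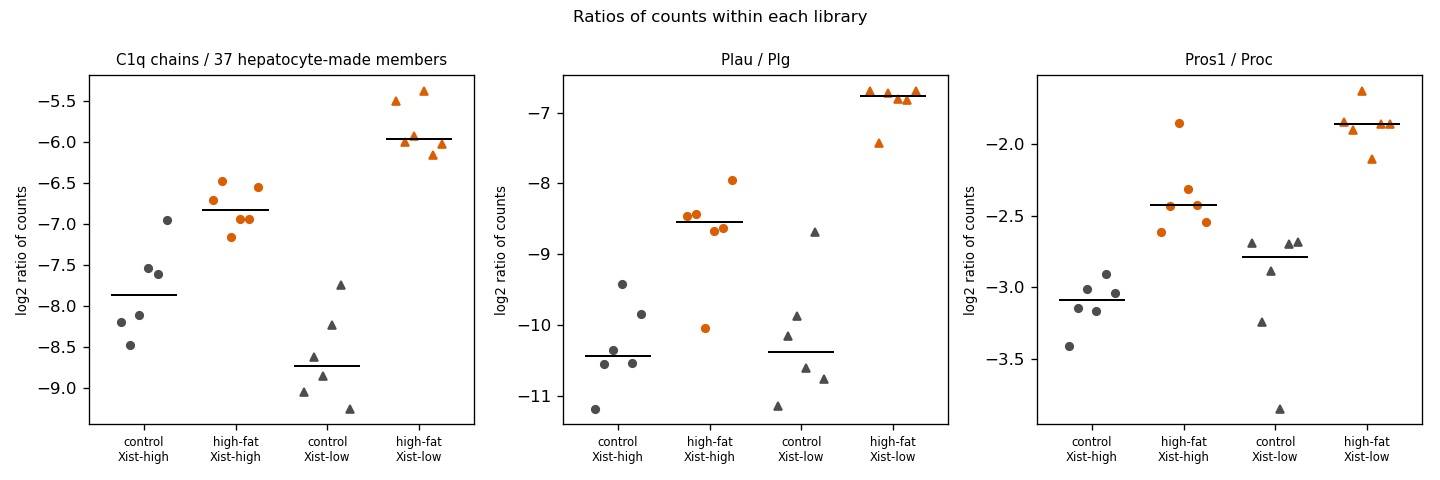
Log2 ratio of counts within each library for the C1q chains over the 37 hepatocyte-made members, Plau over Plg, and Pros1 over Proc, by diet and set (circles Xist-high, triangles Xist-low, bars medians of 6 libraries). The first ratio had medians of -6.82 and -7.86 (high-fat and control) in Xist-high and -5.96 and -8.73 in Xist-low libraries.

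Other genes of the pathways were listed beside the members. Of 26 further complement genes tested, 4 rose and 3 fell, where 13.2% of all genes were called higher and 4.99% lower. Those that rose were the subunits of the complement receptors for iC3b, Itgam (log2 fold change 1.65), Itgax (2.98) and Itgb2 (1.72), and the lectin Colec11 (0.56). Those that fell include Susd4 (-3.20), a complement regulator that had a log2 fold change of 1.67 in Xist-high and of -3.68 in Xist-low libraries (adjusted p = 1.65e-06 for the difference). The regulators C4bp, Serping1 and Cd55 were not called.

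Of 26 further coagulation genes tested, 7 rose and 5 fell, against the same 13.2% and 4.99% of all genes. Those that fell are made by hepatocytes: antithrombin (Serpinc1, -0.57), heparin cofactor II (Serpind1, -0.63), alpha-2-antiplasmin (Serpinf2, -0.61), protein Z (Proz, -0.57) and Hgfac (-0.90), the activator of hepatocyte growth factor. Those that rose include the uPA receptor (Plaur, 2.07), the plasminogen receptors Anxa2 (2.97) and Plgrkt (0.53), the protein C receptor (Procr, 1.52), the protease-activated receptor F2rl1 (2.28) and A2m (2.30). F2rl1 and A2m were near the floor, with means of 1.49 and 0.58 CPM on the high-fat diet and 0.30 and 0.12 CPM on the control diet. The median log2 fold change was -0.13 over the complement and -0.23 over the coagulation genes of these lists.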

How the data were processed

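Counts per gene of 24 liver libraries were analysed, 12 per diet. The authors deposited whole-number counts of 56205 Ensembl genes, without normalization. The submitters' processing notes name bcl2fastq, STAR 2.7.3a and mm10, and the study's methods describe a stranded poly(A) kit and, with a human reference, an exon quantification pipeline and PISCES, without naming the mouse libraries. The counting program, annotation and strand setting of the mouse counts are not given in the sources used here. No column was left unused. The members, lists, tests and alternatives were chosen with earlier results of these data known.

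Symbols, positions and exon lengths came from GENCODE M21 (mm10), and 51745 of the gene IDs had a symbol. The 17913 genes that had 1 count or more in 12 or more libraries were tested with edgeR 4.0.16 in R 4.3.3 (TMM, quasi-likelihood fit, a single term for diet, p-values adjusted by Benjamini-Hochberg). Calls needed an adjusted p up to 0.01 and a log2 fold change beyond 0.5 in either direction. Standard errors were obtained by dividing the size of the log2 fold change by the square root of F. Diet was also fitted within the sets of libraries above and below 1000 Xist counts and with an interaction of diet and set, called at the same adjusted p with no fold threshold. On average 3 counts equal 0.175 CPM in a control library and 0.148 CPM in a high-fat library. The scripts were tested on simulated data.

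The named genes were all members by value or range, with the C1q chains, called members and fibrinogen chains in full, and the called genes of the other pathway lists, of which a few are not reported here. Alternatives were DESeq2 1.42.0, limma-voom (limma 3.58.1), other scalings, filters and thresholds, the replicate number as a block, the set as a covariate, the sets alone and each library left out. Leaving out 3 libraries together, other scalings or libraries left out for the interaction, and the STAT motif were added after seeing the data. No 2 libraries of a diet were alike within sampling noise (lowest chi-square per degree of freedom 10.1).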

Additional observations from a re-analysis of the deposited data

Results flagged for a closer look

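For 10 members the effect of the high-fat diet differed between the Xist-low and Xist-high libraries (interaction in edgeR's quasi-likelihood test, adjusted p of at most 0.01, against 4.06% of all genes). The log2 fold change in Xist-low minus that in Xist-high libraries was 1.51 for C1qa, 1.63 for C1qb, 1.45 for C1qc and 1.81 for C3ar1, all of which are carried by myeloid cells. It was -1.16 for C6, -2.37 for C8a, -2.13 for C8b and -1.22 for C9, of the membrane attack complex, and -1.05 for F11 and -0.92 for Klkb1, of the contact system. With each of the 24 libraries left out in turn, all 10 kept an adjusted p under 0.01, and the difference of C8a was then -2.52 to -1.97 and that of C1qb 1.48 to 1.76. With library totals alone the differences of C6, F11 and Klkb1 did not pass (adjusted p = 0.0253, 0.0153 and 0.0113). The labels do not say what sets the libraries apart, but Ddx3y, a gene of the Y chromosome, had counts in the Xist-low libraries only. Diet effects within a set rest on 6 libraries per diet.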

How the results depend on the processing

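Across all genes, library totals alone gave 3827 genes higher and 226 lower, so 94.4% of calls were higher against 72.6% with TMM. An adjusted p of at most 0.05 with no fold threshold gave 3709 and 3388, at least 10 counts in every library 1226 higher among fewer genes tested, a log2 fold change over 1 216 lower, Xist-high libraries alone 520 higher and 158 lower, and Xist-low libraries alone 1431 lower. Of the members, those called lower numbered 3 with library totals, 26 at the looser threshold, 1 (C8b) at a log2 fold change over 1, 2 in Xist-high and 23 in Xist-low libraries, and those called higher 3 in Xist-high libraries. With 1 library left out, the members called were 8 to 11 higher and 12 to 14 lower, and all genes 2188 to 2468 higher and 700 to 995 lower. The interaction was called for 10 to 15 members and 491 to 1180 genes with 1 library left out, where 1180 was without control replicate 11, and for 1333 genes with library totals. Without high-fat replicates 3 and 9 and control replicate 10 together, 8 members were called higher and 12 lower, and 2133 and 863 of all genes. Vwf, Masp2 and C8g were no longer called, and Hc was called lower.

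With the replicate number as a block (replicate block), 8 members were called higher and 15 lower, and 2063 and 844 of all genes. Mbl2 and F2 were gained and F13a1 was lost. Of the 12 same-numbered pairs, 11 deviated together (correlations 0.15 to 0.54) and replicate 9 did not (-0.093). The deviations hold the difference between the sets, and only 2 high-fat and 4 control libraries correlated best with their own number. Same-numbered libraries were therefore not treated as pairs. With the set as a covariate 10 members were called higher and 15 lower, and 2418 and 1061 of all genes. Cfp, Mbl2 and F2 were gained.

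Values of uncalled members that changed sign were, with library totals, C1s1 0.12, C2 0.052, C4b 0.12, C3 0.086, Cfb 0.10, F8 0.076 and Cpb2 0.18. The median of all genes moved from -0.03 with TMM to 0.26 with library totals, and all of these members lay under it in both scalings. C8a was at 0.12 with limma-voom, 0.10 with the replicate block, 0.17 with the set as a covariate and 1.37 in Xist-high libraries, where C6 was at 0.39 and Cpb2 at 0.11. In Xist-low libraries C9 was at -0.29 and F8 at 0.071, and C9 ranged from -0.017 to 0.19 with 1 library left out. The cause of the changes in fits other than library totals was not tested. Low counts limit F13a1, Plat, C5ar1 and C7, with medians of 2.5, 9.5, 13 and 26 counts per control library. No control library held more than 11 counts of F13a1. They also limit Cfd, with 0 to 3 counts in 6 control libraries and a linear fold change of 1.04 to 2.59 with 1 library left out.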
